A study of Mus musculus with 12 samples.

Results

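The Wnt genes described here are the ligands, receptors, secreted antagonists, intracellular transducers and transcription factors of the Wnt pathway, followed in cultured mouse cortical cells with and without the thyroid hormone T3. The set is defined by gene names and takes every gene called Wnt, Fzd, Sfrp, Dkk or Rspo with a number, the genes of the Tcf7, Nkd, Axin, Dvl, Gsk3 and Lgr families, and Lrp5, Lrp6, Lef1, Ctnnb1, Apc and Wif1. The mouse annotation holds 62 such genes, of which 48 were among the 14801 genes of the deposited table and 39 had enough reads to be tested, among 13663 genes tested in all. Each fetus, taken at gestational day 17.5 and numbered as mouse 1 to 6, supplied cortical cells for a pair of cultures. One culture of each pair received 10 nM T3 for 24 h, and the other was kept without T3 in parallel. All 12 libraries are labelled wild type. The shared history of all cultures was 9 days of growth in Neurobasal medium with B27 supplement, after plating with horse serum, and then 24 h without B27. Sex is not given in the labels.

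Wnt proteins are secreted lipid-modified ligands that bind Frizzled (Fzd) receptors together with the co-receptors Lrp5 or Lrp6. Without ligand, a complex of Axin, Apc and the Gsk3 kinases marks beta-catenin, the product of Ctnnb1, for destruction, and with ligand beta-catenin enters the nucleus and acts through Tcf and Lef factors. In the developing cortex the pathway is known for its part in progenitor division, regional patterning, axon growth and the vessels of the brain.

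Values are CPM, read counts in proportion to the size of a library, scaled by TMM to allow for the composition of each library, and each ± is the SD over 6 cultures. Changes are log2(CPM + 0.5) with T3 minus the same without T3, a scale that understates the change of genes at low levels. They were fitted with limma with the mouse as a block, and a gene counts as called when its Benjamini-Hochberg adjusted p over all 13663 genes is under 0.05. The T3 libraries held 7460586 to 10837895 reads and the libraries without T3 5272092 to 8136928. One read was worth 0.0911 to 0.186 CPM, and 3 reads, the limit that a count of 0 allows, stood at 0.273 to 0.557 CPM, for counting error only. Of 6 genes described as induced by T3 (Hr, Klf9, Dio3, Dbp, Stac2 and Gls2), 6 were higher with T3, by 0.83 to 3.00 log2 units. These genes were listed with earlier results of these data known, so their rise is no independent check of the treatment. Of 10 listed heart muscle markers, 3 were in the deposited table. The library of mouse 4 without T3 held 1212.6 CPM summed over these 3, against at most 6.88 in the other 11 libraries.

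Among the 39 tested Wnt genes, T3 lowered Sfrp1, a secreted antagonist, and Rspo2, a secreted enhancer of Wnt signalling, and raised Dkk3, a secreted protein of the Dickkopf family. Sfrp1 fell to 0.667 of its level without T3, Rspo2 fell to 0.698, and Dkk3 rose 1.25-fold. The 3 called genes all encode secreted proteins, and no ligand, Frizzled receptor, cytoplasmic or nuclear member passed the test. The 3 calls are 7.69% of the tested members, against 5.52% of all genes called. By direction 1 of the 39 tested members was higher, against 3.37% of all genes, and 2 of the 39 were lower, against 2.14% of all genes. The share called in either direction lies near the background, and the counts by direction rest on 1 and 2 genes.

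The median change over the tested members was 0.019 log2 units, and 34 of the 39 estimates lay within 0.25 of 0. Over all genes the median was 0.003. With T3 22 members lay above 0 and 17 below. For 6 members (15.4%) the difference had the same sign in 6 of 6 mice, against 10.8% of all genes. They were Sfrp1, Rspo2, Axin2, Dkk3, Fzd6 and Rspo3. The values with and without T3 did not overlap for 1 member, Sfrp1 (2.56%), against 1.68% of all genes.

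**Figure D1:**
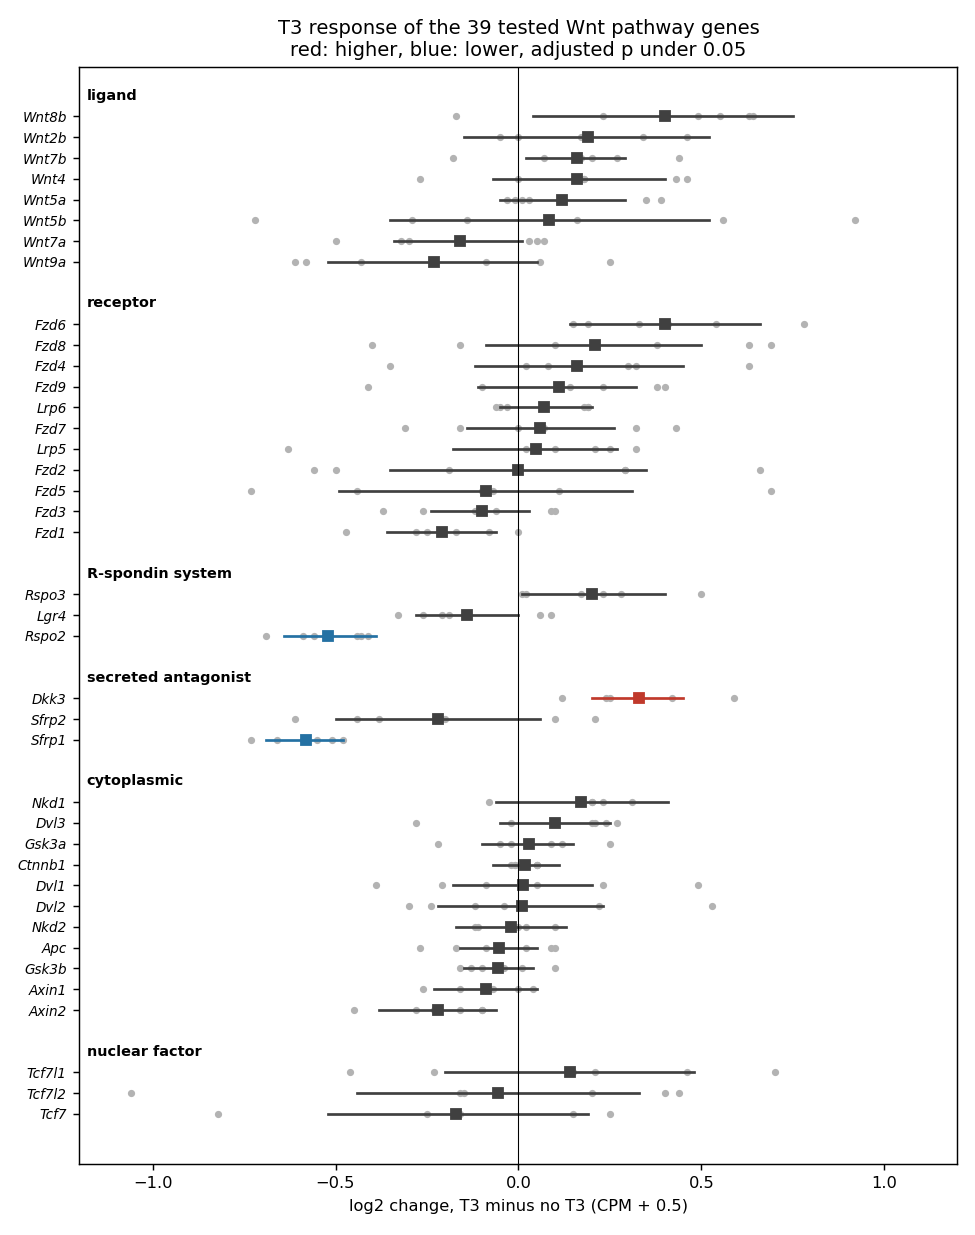
Change of each tested Wnt gene with T3, as log2(CPM + 0.5) with T3 minus without T3 on the horizontal axis, with squares for the limma estimate, bars for its 95% interval and grey points for the 6 mice. Sfrp1 at -0.58, Rspo2 at -0.52 and Dkk3 at 0.33 are the called genes, and most other members lie within 0.25 of 0.

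Of 19 ligand genes, 11 were in the table, 8 were tested and none was called, with changes between -0.23 and 0.40. Wnt7b was the leading ligand transcript per kb of exon, at 23.9 ± 4.05 CPM per kb with T3 and 21.2 ± 2.11 without T3. It made up a median of 57.6% of the summed per-kb level of the 11 ligands with T3 (40.6 to 61.6%) and 53.2% without T3 (45.4 to 56.1%). Wnt7a, which with Wnt7b guides vessels into the brain, came next at 8.46 ± 1.63 CPM per kb with T3 and 9.41 ± 1.09 without T3. Wnt5a, a ligand known mainly for signalling without beta-catenin, stood at 3.15 ± 0.678 CPM per kb with T3 and 2.88 ± 0.582 without T3. The distances between these 3 ligands were larger than their spread between cultures.

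Wnt7b (ENSMUSG00000022382) ranged from 81.4 to 136.7 CPM with T3, median 122.1, and from 91.5 to 116.5 CPM without T3, median 104.6. The groups overlapped, and mouse 1 had the lowest T3 value. The Wnt7b change was 0.16 (95% interval 0.02 to 0.29, limma adjusted p = 0.191), positive in 5 of 6 mice. Without mouse 1, the mouse with the opposite sign, it was 0.23 and the call appeared, with a limma adjusted p of 0.0199. Over all 14 alternatives its adjusted p ran from 0.0199 to 0.719.

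Wnt8b, a ligand known from the medial edge of the developing cortex, had the largest estimate among ligands, at a low level. It ranged from 1.74 to 4.94 CPM with T3, median 2.90, and from 1.16 to 3.37 CPM without T3, median 1.78, or 9 to 38 reads per library. The groups overlapped, and the change of 0.40 (limma adjusted p = 0.223) was positive in 5 of 6 mice. Wnt7a differed by -0.16 (limma adjusted p = 0.33), with 3 mice in each direction. Wnt5a differed by 0.12 (limma adjusted p = 0.485). Wnt2, Wnt3 and Wnt11 had between 2 and 17 reads per library and were not tested. Wnt1, Wnt3a, Wnt6, Wnt8a, Wnt9b, Wnt10a, Wnt10b and Wnt16 had no row in the table, which lists genes at 1 CPM or more in at least 2 libraries.

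**Figure D2:**
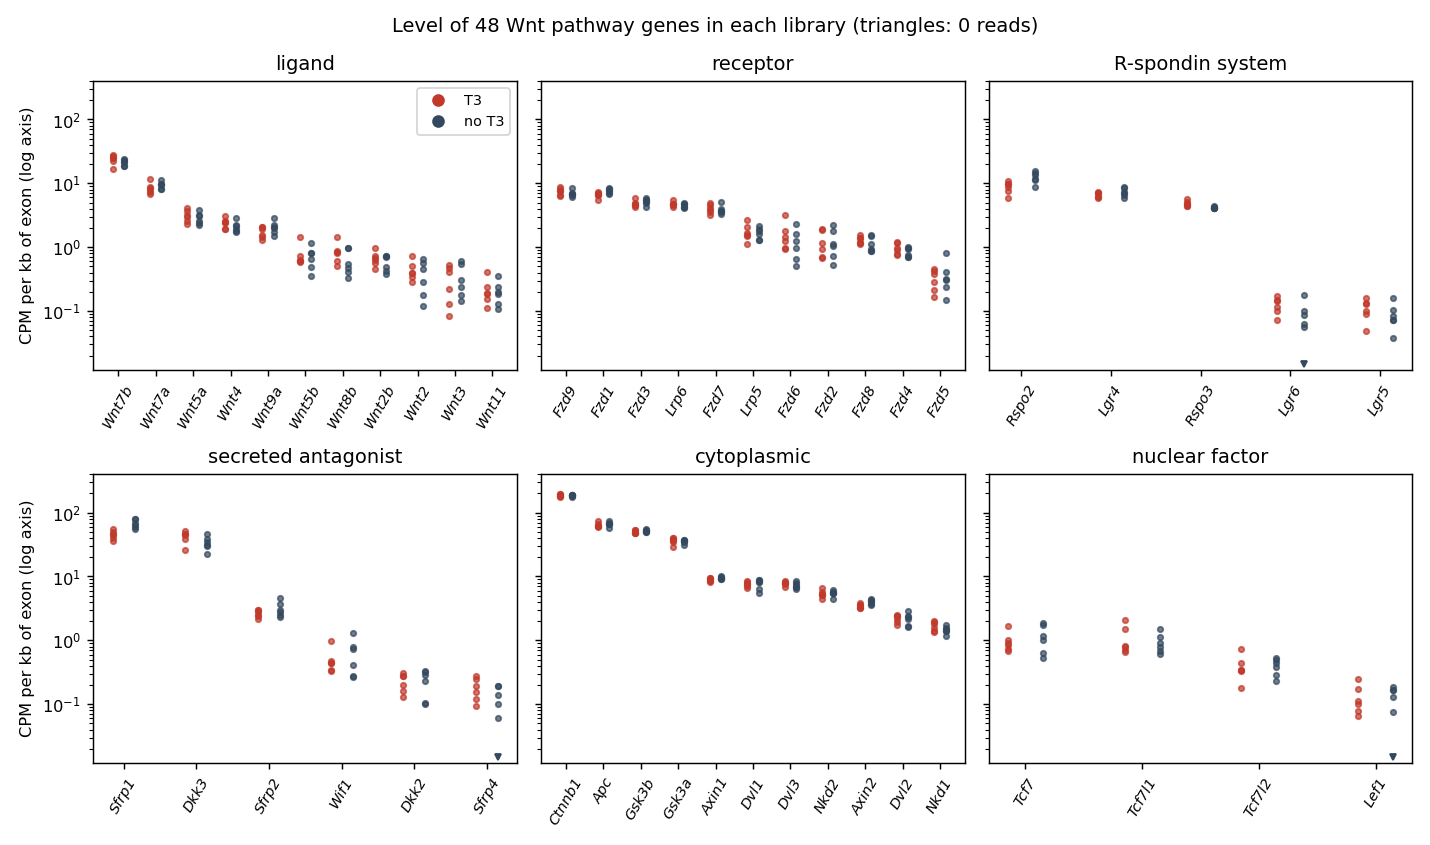
Level of the 48 Wnt genes by role in CPM per kb of exon on a log axis, 1 point per library, with T3 in red left of no T3 in dark blue, and triangles for libraries with 0 reads. Ctnnb1 leads with a mean of 186 CPM per kb with T3 and 184 without T3, and Lef1 is the lowest of the nuclear factors at 0.130 with T3 and 0.121 without T3.

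All 11 receptor and co-receptor genes in the table were tested, and none was called. Fzd9, Fzd1 and Fzd3 had the most Frizzled transcript per kb. Fzd9 stood at 7.52 ± 0.944 CPM per kb with T3 and 6.96 ± 0.820 without T3. Fzd1 stood at 6.62 ± 0.646 CPM per kb with T3 and 7.66 ± 0.685 without T3, so these neighbours differed by about their spread in each group and stood in the other order without T3. The co-receptor Lrp6 had 4.77 ± 0.416 CPM per kb with T3 and 4.54 ± 0.365 without T3, above Lrp5 at 1.76 ± 0.546 with T3 and 1.67 ± 0.347 without T3. Fzd10 had no row.

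Fzd6, a receptor known in the mouse for planar polarity, ranged from 4.55 to 15.2 CPM with T3, median 6.44, and from 2.44 to 11.3 CPM without T3, median 5.31. Its T3 value was the higher one in 6 of 6 mice while the groups overlapped widely, with mouse 1 highest and mouse 6 lowest in both groups. The Fzd6 change was 0.40 (SE 0.13) and missed the threshold, with a limma adjusted p of 0.071. Fzd1 ranged from 22.6 to 30.6 CPM with T3, median 28.1, and from 28.2 to 35.7 CPM without T3, median 32.4. The groups overlapped in part, and the Fzd1 change of -0.21 (SE 0.073) also missed the threshold, with a limma adjusted p of 0.114. Fzd1 made up a median of 23.0% of the summed per-kb level of the 9 Frizzled genes with T3 and 26.7% without T3, lower with T3 in 6 of 6 mice. Fzd3, needed in the mouse for axon tracts of the forebrain, differed by -0.10 (limma adjusted p = 0.464), and Fzd9 by 0.11 (limma adjusted p = 0.669).

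R-spondins are secreted proteins that bind Lgr4, Lgr5 or Lgr6 and slow the removal of Frizzled receptors from the cell surface. Rspo2 (ENSMUSG00000051920, GRCm38 chromosome 15, 43020794 to 43170826, minus strand) was lower with T3. In mouse 1 to 6 it had 44.6, 54.8, 49.8, 50.6, 38.7 and 30.1 CPM with T3, against 59.5, 74.0, 80.8, 68.7, 58.4 and 44.4 CPM without T3. Within each mouse the T3 culture was the lower one, while the groups overlapped because mouse 6 without T3 lay below several T3 cultures of other mice. The change was -0.52 (SE 0.060, 95% interval -0.64 to -0.39, limma adjusted p = 1.11e-05), and by mouse it ran from -0.69 to -0.41. In the limma fit without the mouse block the same change had an adjusted p of 0.19.

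Rspo3, the other R-spondin in the table, ranged from 13.5 to 17.8 CPM with T3, median 14.7, and from 12.5 to 13.6 CPM without T3, median 12.7. The groups overlapped at their edge, and the T3 value was higher in 6 of 6 mice, by 0.01 to 0.50 log2 units. The Rspo3 change of 0.20 had a limma adjusted p of 0.264, and 13.1% of its exon bases are shared with the antisense gene Gm48159, whose reads cannot be told apart without strand. Rspo2 made up a median of 65.6% of the summed per-kb level of the 2 R-spondins with T3 (55.6 to 69.0%) and 75.2% without T3 (67.7 to 78.4%). Its share was lower with T3 in 6 of 6 mice, which follows from Rspo2 being lower and Rspo3 higher in each mouse. Lgr4, the main R-spondin receptor in these cells by per-kb level, had 38.9 ± 3.29 CPM with T3 and 43.2 ± 6.62 CPM without T3 (change -0.14, limma adjusted p = 0.304). Lgr5 and Lgr6 had at most 18 and 11 reads per library and were not tested. Rspo1 and Rspo4 had no row.

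Sfrp1 encodes a secreted protein with a Frizzled-like domain that binds Wnt ligands outside the cell. It stood at 45.2 ± 6.68 CPM per kb with T3 and 67.7 ± 9.72 without T3. Dkk3, placed by its name in the group of secreted antagonists, came next. It stood at 42.3 ± 8.71 CPM per kb with T3, within the spread of Sfrp1, and at 33.9 ± 8.36 without T3. Sfrp1 made up 92.3 to 94.8% of the per-kb level of the 3 Sfrp genes with T3 and 93.6 to 96.4% without T3. Sfrp1 (ENSMUSG00000031548, GRCm38 chromosome 8, 23411502 to 23449632, plus strand) had 239.1, 198.3, 216.6, 199.5, 172.6 and 158.2 CPM with T3 in mouse 1 to 6, against 349.2, 276.9, 342.5, 299.7, 246.0 and 262.1 CPM without T3. Every T3 culture lay below every culture without T3. The change was -0.58 (SE 0.049, 95% interval -0.69 to -0.48, limma adjusted p = 1.72e-07), and the 6 mice ran from -0.73 to -0.48. Over the 14 alternatives it stayed between -0.61 and -0.56, with an adjusted p of at most 0.00987.

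Dkk3 encodes a secreted member of the Dickkopf family, whose other members block the Lrp5 and Lrp6 co-receptors. Dkk3 (ENSMUSG00000030772, GRCm38 chromosome 7, 112116017 to 112159057, minus strand) had 171.2, 131.4, 157.7, 150.3, 153.4 and 88.4 CPM with T3 in mouse 1 to 6, against 157.2, 104.2, 117.7, 99.6, 128.7 and 74.7 CPM without T3. The T3 culture was higher in 6 of 6 mice, and the groups overlapped because mouse 1 was highest and mouse 6 lowest in both. The change was 0.33 (SE 0.058, 95% interval 0.20 to 0.45, limma adjusted p = 0.00135), with 0.12 in mouse 1 and 0.59 in mouse 4 as the ends. In the limma fit without the mouse block the adjusted p was 0.623.

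Sfrp2, a close relative of Sfrp1, ranged from 4.65 to 6.41 CPM with T3, median 5.67, and from 4.98 to 10.0 CPM without T3, median 6.27. The groups overlapped, the change of -0.22 had a limma adjusted p of 0.441, and 16.1% of its exon bases are shared with Gm26771. Wif1, Dkk2 and Sfrp4 had at most 18 reads in any library and were not tested. Dkk1, Dkk4 and Sfrp5 had no row.

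**Figure D3:**
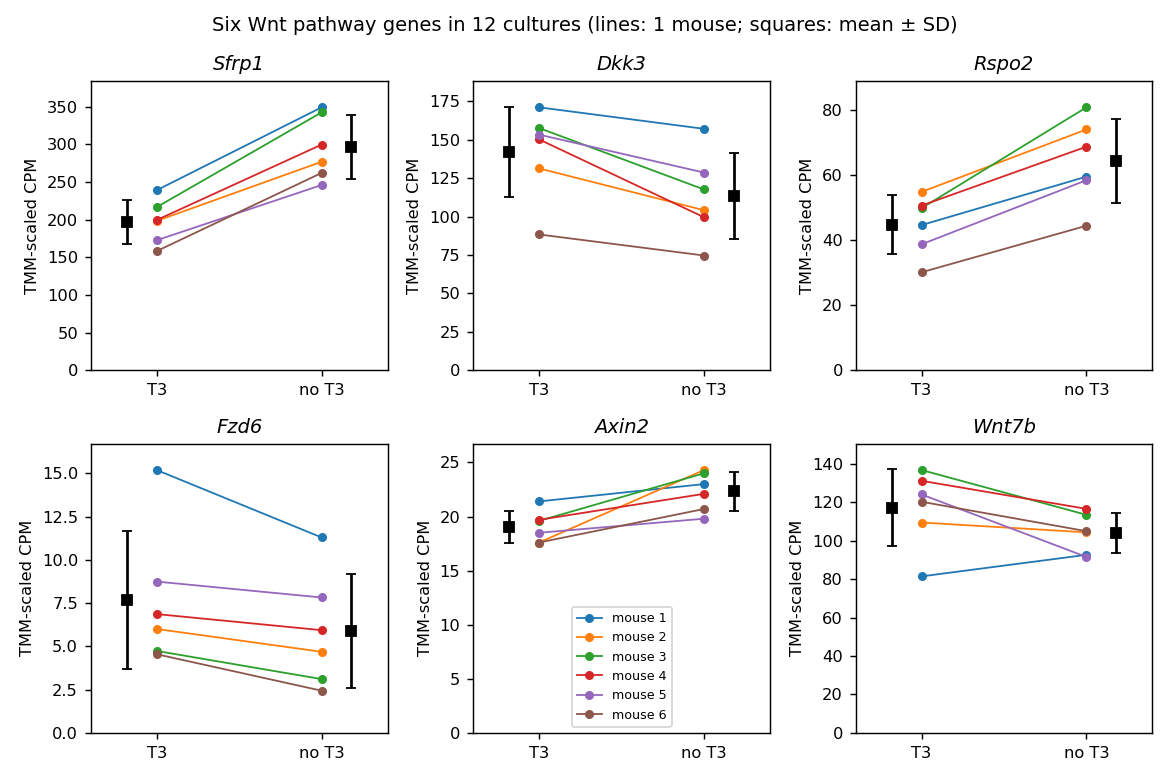
CPM of the called Wnt genes Sfrp1, Dkk3 and Rspo2 and of Fzd6, Axin2 and Wnt7b, which were not called, with T3 on the left and no T3 on the right, a line joining the cultures of each mouse and squares for the mean ± SD. Sfrp1 runs from 158.2 to 239.1 CPM with T3, below all cultures without T3 at 246.0 to 349.2 CPM.

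The RNA came from mixed cultures, so fewer cells of a type and less RNA per cell cannot be told apart. Of 11 astrocyte markers in the table, 7 were higher with T3 and none lower, and their summed level ran from 1413 to 3763 CPM with T3 and from 914.3 to 3069 CPM without T3, higher with T3 in 6 of 6 mice. Of 8 markers of oligodendrocyte precursors 3 were higher and 1 lower, with sums of 475.5 to 572.1 CPM with T3 and 414.9 to 515.5 CPM without T3. Of 6 tested markers of mature oligodendrocytes 1 was higher, with sums of 85.2 to 115.5 CPM with T3 and 80.1 to 113.6 CPM without T3. The summed levels of these glial lists overlapped between the groups, and within the mice each was higher with T3 in 6 of 6. Of 8 general neuron markers 2, Rbfox3 and Nefl, were higher and none lower, with sums of 6652 to 8089.8 CPM with T3 and 7065 to 9095.9 CPM without T3. Of 8 excitatory neuron markers 3 were lower with T3, with sums of 1019.6 to 1332.8 CPM with T3 and 1137.9 to 1434.0 CPM without T3. The general and the excitatory neuron sums were lower with T3 in 5 of 6 mice, the exception being mouse 4. Of 9 inhibitory neuron markers 1 was higher and 1 lower. Their sums were 727.4 to 1032.8 CPM with T3 and 875.0 to 960.9 CPM without T3, higher with T3 in 2 of 6 mice. Of 8 markers of radial glia and progenitors 1 was higher and none lower. Their sums were 972.4 to 1558.1 CPM with T3 and 805.7 to 1441.1 CPM without T3, higher with T3 in 3 of 6 mice. Of 8 markers of dividing cells 3 were lower, with sums of 92.7 to 128.8 CPM with T3 and 118.0 to 268.9 CPM without T3, lower with T3 in 6 of 6 mice. Of 10 markers of mural cells and meningeal fibroblasts 1 was lower, with sums of 199.0 to 419.1 CPM with T3 and 227.5 to 706.4 CPM without T3. The upper ends of 268.9 and 706.4 CPM are the library of mouse 4 without T3, and the highest of the other 11 libraries had 166.9 CPM for dividing cells and 459.0 CPM for mural and meningeal cells. No tested marker of choroid plexus and ependyma or of endothelium was called. Choroid plexus and ependyma sums were 12.5 to 329.9 CPM with T3 and 10.2 to 418.1 CPM without T3, higher with T3 in 5 of 6 mice. Endothelium sums were 7.45 to 30.9 CPM with T3 and 7.32 to 36.9 CPM without T3, higher with T3 in 3 of 6 mice. Microglia markers summed to 4.28 to 8.70 CPM with T3 and 3.08 to 10.2 CPM without T3, and none of the 6 red blood cell markers had a row. The part of these shifts in the changes of Sfrp1, Rspo2, Dkk3 and the further called pathway genes was not tested.

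None of the 11 cytoplasmic members was called, with all changes under 0.25 in size. Ctnnb1, the gene of beta-catenin, had 967.9 ± 33.6 CPM with T3 and 955.0 ± 29.4 CPM without T3. The groups overlapped, and the Ctnnb1 change of 0.019 had a 95% interval of -0.07 to 0.11 (limma adjusted p = 0.872), with 15.1% of its exon bases shared with Ulk4. Apc, a scaffold of the destruction complex, had 1036.4 ± 88.8 CPM with T3 and 1075.0 ± 90.6 CPM without T3, a change of -0.052. Gsk3b, a kinase of that complex, had 491.8 ± 22.0 CPM with T3 and 510.9 ± 24.8 CPM without T3, a change of -0.055. Per kb of exon Ctnnb1 stood above Apc and Apc above Gsk3b by more than their spread between cultures.

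Axin2, a scaffold of the destruction complex that is also a widely used readout of beta-catenin signalling, ranged from 17.6 to 21.4 CPM with T3, median 19.1, and from 19.8 to 24.3 CPM without T3, median 22.5. The T3 culture was lower in 6 of 6 mice and the groups overlapped in part. The Axin2 change of -0.22 (SE 0.079, 95% interval -0.38 to -0.06) missed the threshold, with a limma adjusted p of 0.124. Axin1, its constitutive relative, differed by -0.09 (limma adjusted p = 0.543). Nkd1, which binds dishevelled proteins and dampens the signal, had 7.65 ± 1.27 CPM with T3 and 6.69 ± 0.858 CPM without T3 (change 0.17, limma adjusted p = 0.478). The dishevelled genes Dvl1, Dvl2 and Dvl3, which relay the signal from Frizzled receptors, differed by 0.012, 0.0092 and 0.10.

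The nuclear members stood at low levels. Tcf7 had 2.57 ± 0.962 CPM with T3 and 3.08 ± 1.48 CPM without T3 (change -0.17, limma adjusted p = 0.693). Tcf7l1 had 4.32 ± 2.33 CPM with T3 and 3.68 ± 1.31 CPM without T3 (change 0.14, limma adjusted p = 0.735). Tcf7l2 had 3.45 ± 1.60 CPM with T3 and 3.48 ± 1.04 CPM without T3 (change -0.055, limma adjusted p = 0.923). In all 3 genes the groups overlapped, and mouse 1 was the highest in both groups. The sign of Tcf7l2 turned without mouse 4, to 0.15. Lef1 had at most 17 reads per library and was not tested.

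The mice differed in their Wnt transcripts. Of the 39 tested members 20 had their highest library in mouse 1 (51.3%), against 22.0% of all tested genes, in 12 cases the T3 library and in 8 the library without T3. For 14 the lowest library was in mouse 6 (35.9%), against 23.8% of all genes, and 11 of these lay in its library without T3 and 3 in its T3 library. Dkk3, Fzd2, Fzd6, Tcf7, Tcf7l1, Tcf7l2, Lrp5, Fzd5, Sfrp1, Wnt7a, Wnt9a, Ctnnb1 and Dvl2 were highest in mouse 1 in both groups. Mouse 1 also had the highest astrocyte marker sums, 3763 CPM with T3 and 3069 CPM without T3, and mouse 6 the lowest, 1413 CPM with T3 and 914.3 CPM without T3. Markers of radial glia and progenitors were likewise highest in mouse 1, at 1558.1 CPM with T3 and 1441.1 CPM without T3. They were lowest in mouse 6, at 972.4 CPM with T3 and 805.7 CPM without T3. With T3, mouse 2 and mouse 3 stood close to mouse 6, at 975.5 and 979.8 CPM. Choroid plexus and ependyma markers were also highest in mouse 1, at 329.9 CPM with T3 and 418.1 CPM without T3. The part of these cell types in the spread of the Wnt genes was not tested. For Dkk3 and Fzd6 the spread between mice was larger than the change, while for Sfrp1 the change was 2.84 times the SD between mice without T3. Rspo3, which was not called, had a larger ratio of 3.93, and the ratio was 1.91 for Axin2 and 1.71 for Rspo2.

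Beyond these members, 86 further genes of the pathway in 6 lists were followed, of which 76 were tested, 4 were higher and 2 lower, with a median change of 0.007. The 6 calls are 7.89% of those tested, near the 5.52% of all genes. The difference had the same sign in 6 of 6 mice for 14 of the 76, against 10.8% of all genes. Before adjustment the limma p was under 0.05 for 27 of the 76, against 2388 of all 13663 genes. The estimates ran from -0.84, in a gene not called, to 0.95. Daam2 (GRCm38 chromosome 17, 49456022 to 49564343), a formin that binds dishevelled, ranged from 13.0 to 47.0 CPM with T3, median 17.2, and from 6.03 to 24.1 CPM without T3, median 10.7. The groups overlapped, and the T3 culture was higher in 6 of 6 mice. The Daam2 change was 0.95 (SE 0.13, limma adjusted p = 0.000217), and without the mouse block its adjusted p was 0.344. It was the only one of 14 tested genes for alternative receptors and planar polarity to pass.

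Of the 17 nuclear cofactors, Pygo1 and Tle1 were lower with T3. Pygo1 (chromosome 9, 72925645 to 72952181), which binds Bcl9 in the beta-catenin complex, had 128.8 ± 6.67 CPM with T3 and 152.6 ± 6.63 CPM without T3, with no overlap between the groups. Its change was -0.24 (SE 0.053, limma adjusted p = 0.00736), and the call was lost without mouse 3 (adjusted p = 0.0639). Tle1 (chromosome 4, 72117142 to 72200919), a corepressor that binds Tcf factors, had 62.3 ± 7.40 CPM with T3 and 75.9 ± 5.45 CPM without T3, lower in 6 of 6 mice (change -0.29, limma adjusted p = 0.0112). The Tle1 call was lost without the mouse block (adjusted p = 0.0983) and without mouse 6 (adjusted p = 0.0569).

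**Figure D4:**
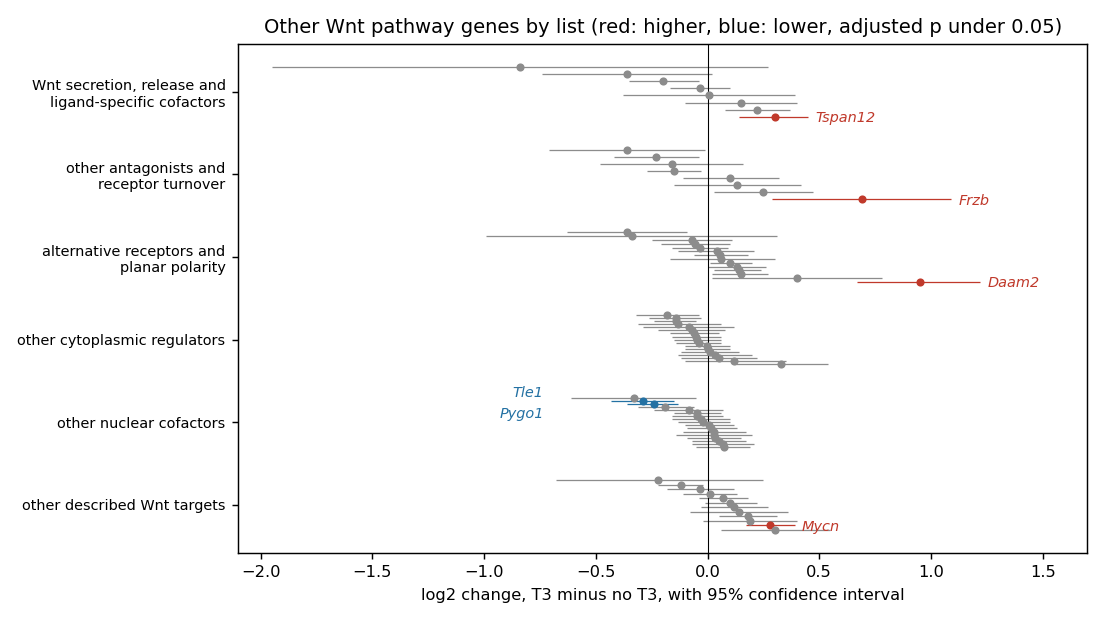
Change with T3 of the tested genes in the 6 further Wnt pathway lists, as log2(CPM + 0.5) with T3 minus without T3, 1 point per gene in a band per list, with bars for the 95% interval and called genes named. Daam2 at 0.95 lies farthest to the right among them, and Tle1 at -0.29 is the lowest of the called genes.

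Frzb (chromosome 2, 80411970 to 80447625), a secreted antagonist related to the Sfrp genes, ranged from 2.13 to 8.70 CPM with T3, median 3.98, and from 1.21 to 3.96 CPM without T3, median 2.34. The groups overlapped, and the T3 culture was higher in 5 of 6 mice. The Frzb change was 0.69 (SE 0.19, limma adjusted p = 0.0396). The call was lost in DESeq2 (adjusted p = 0.161), without the mouse block (adjusted p = 0.407) and in limma without mouse 1, 4, 5 or 6 (adjusted p = 0.074, 0.148, 0.0776 and 0.166). Tspan12 (chromosome 6, 21771395 to 21852515), a tetraspanin that enhances Norrin signalling through Fzd4, had 36.0 ± 12.6 CPM with T3 and 29.1 ± 9.11 CPM without T3, higher in 6 of 6 mice (change 0.30, limma adjusted p = 0.0215). The Tspan12 call was lost in DESeq2 (adjusted p = 0.0845), without the mouse block (adjusted p = 0.775) and in limma without mouse 1, 2, 3 or 6 (adjusted p = 0.0596, 0.0505, 0.115 and 0.0539). Among secretion and cofactor genes it was 1 of 8 tested to pass, and among the other antagonists and receptor turnover genes Frzb was 1 of 8.

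Mycn (chromosome 12, 12936093 to 12941914), a transcription factor gene described as a Wnt target, ranged from 73.5 to 109.9 CPM with T3, median 89.9, and from 60.6 to 88.5 CPM without T3, median 75.0. It was higher with T3 in 6 of 6 mice, with overlapping groups, by 0.28 (SE 0.053, limma adjusted p = 0.00232). Without the mouse block its adjusted p was 0.25. It was the only one of 12 tested targets outside the members to pass. Myc differed by 0.18 (limma adjusted p = 0.0998) and Ccnd1 by 0.10 (limma adjusted p = 0.338). None of the 17 tested cytoplasmic regulators outside the members was called.

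The promoters of Frzb and Mycn are shown because they are the called pathway genes whose RefSeq windows hold a searched motif. Of the 48 members in the table, 32 had a window in RefSeq's promoter table on GRCm38.p6. Each window spans 250 bases before to 50 after a RefSeq start. Sfrp1, Rspo2 and Dkk3 were not among the 32. The motifs, sought on both strands, were AGGTCA, the hexamer that thyroid hormone receptors bind, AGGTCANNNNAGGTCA, its direct repeat, and the core that Tcf factors bind, searched as CTTTGAA, as CTTTGAT, as CTTTGTA and as CTTTGTT. The repeat contains the hexamer, so its matches overlap those of the hexamer. The Frzb window is chr2:80447347-80447646 and the Mycn window chr12:12941787-12942086, both on the minus strand and printed 5′ to 3′ along the gene. Capitals mark the match, on the opposite strand to the one printed. AGGTCA lies at bases 3 to 8 after the RefSeq start in Frzb, and CTTTGAA at bases -14 to -8 in Mycn. The GENCODE M21 spans given above begin farther upstream, at 80447625 for Frzb and 12941914 for Mycn, so both matches lie inside the spans.
Frzb: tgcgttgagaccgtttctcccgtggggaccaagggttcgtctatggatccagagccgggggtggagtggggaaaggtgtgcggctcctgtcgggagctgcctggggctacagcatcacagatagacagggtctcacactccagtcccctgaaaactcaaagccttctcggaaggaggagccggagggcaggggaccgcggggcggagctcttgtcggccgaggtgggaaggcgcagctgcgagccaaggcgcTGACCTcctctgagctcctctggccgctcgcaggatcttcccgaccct
Mycn: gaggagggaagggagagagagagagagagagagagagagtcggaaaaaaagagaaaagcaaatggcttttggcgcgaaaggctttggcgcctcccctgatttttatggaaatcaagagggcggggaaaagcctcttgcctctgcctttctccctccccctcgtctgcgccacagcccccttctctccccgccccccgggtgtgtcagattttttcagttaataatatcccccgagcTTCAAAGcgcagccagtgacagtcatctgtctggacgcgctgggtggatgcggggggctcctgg

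Among all 32817 windows of this length, 16.3% held AGGTCA, 0.0152% its direct repeat and 16.9% the Tcf core. Among the 41 windows of the members, 1 held AGGTCA, none the direct repeat and 7 the Tcf core. The windows of Daam2, Pygo1, Tle1 and Tspan12 held none of these motifs.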

How the data were processed

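RNA was sequenced from 12 mouse cortical cultures, 6 with T3 and 6 without, from 500 ng of total RNA with a TruSeq kit that does not mark strand, in single reads of 75 bases, per the labels' protocols. The submitters' processing notes list the build GRCm38 and CASAVA, FastQC, Bowtie, TopHat, HTSeq and edgeR, with tool versions not given in the sources used here. Each deposited value is a signal scaled by TMM per the file headers, read here as CPM. Whole reads were recovered from them (100% of values whole within 0.01 reads). Symbols were matched for 14654 of 14801 identifiers, from a reference list of gene names and, where it held none, from GENCODE M21. Exon lengths and gene positions came from GENCODE M21.

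Differences were tested with limma 3.58.1 (R 4.3.3) on log2(CPM + 0.5), blocked by mouse, with trended and robust variance moderation, two-sided, on the 13663 genes kept by filterByExpr of edgeR 4.0.16. Alternatives were pseudocounts of 1 and 0.1, no filter, RLE scaling, edgeR, DESeq2 1.42.0 and limma-voom on the recovered reads, no block, and leaving out each mouse. The design states that each fetus gave both cultures; deviations of paired libraries correlated at 0.237 to 0.638. Replicates differed by more than sampling noise (chi-square per degree of freedom 2.41 to 18.1, genes with at least 20 reads per pair). The fit was tested on simulated data. It recovered 47.8% of genes changed 1.25-fold, 85.3% of those changed 1.5-fold and 88.9% of those changed 2-fold. It also called 5 of 13370 unchanged genes. A gene not called may therefore still have changed by 1.25-fold or, less often, by 1.5-fold or 2-fold. These shares are over genes at all levels. Among uncalled members the 95% interval differed widely, from 0.04 to 0.75 log2 units for Wnt8b and from -0.07 to 0.11 for Ctnnb1.

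Members and lists were chosen with earlier results of these data known. Named are all called members, per role the 3 with the highest level per kb and the 2 uncalled with the smallest p, those moving the same way in 6 of 6 mice, and up to 6 called genes per pathway list. Axin1, the Dvl genes, Lrp5, Lrp6, Myc and Ccnd1 were named after their values were seen.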

Additional observations from a re-analysis of the deposited data

Results flagged for a closer look

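For 5 of 78 groups of 6 libraries, 1 library lay apart from the other 5 by more than 0.625 of the group's range; chance flags about 1 in 20 groups, so this count is near that share. Wnt5b stood at 3.77 CPM in the T3 library of mouse 1, against 1.53 to 1.91 CPM in the other T3 libraries. Tcf7 stood at 4.42 CPM in the T3 library of mouse 1, against 1.78 to 2.68 CPM. Fzd1 stood at 22.6 CPM in the T3 library of mouse 2, against 28.0 to 30.6 CPM. Among libraries without T3, Fzd9 stood at 19.5 CPM in mouse 1, against 14.1 to 16.1 CPM, and Ctnnb1 at 897.7 CPM in mouse 4, against 951.4 to 977.4 CPM.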

How the results depend on the processing

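Without the replicate block, 1 Wnt gene was called (Sfrp1) in place of 3, 178 of all genes (125 higher, 53 lower) in place of 754 (461 higher, 293 lower), and 1 further pathway gene in place of 6. Leaving out each mouse gave 3 to 4 Wnt genes, 459 to 854 of all genes, the lowest without mouse 3, and 4 to 7 further pathway genes. The Wnt count was 3 under the other alternatives. DESeq2 called 531 genes in all and edgeR 782. Without the block the adjusted p was 0.19 for Rspo2, 0.623 for Dkk3, 0.344 for Daam2, 0.407 for Frzb, 0.775 for Tspan12, 0.25 for Mycn and 0.0983 for Tle1, at the same changes. Tcf7l2 ran from -0.15 to 0.15 as each mouse was left out, the positive value without mouse 4 (adjusted p = 0.726). The cause was not tested. Of the recomputed changes of named genes, 371 kept direction and side of the threshold, 19 lost the call, 1 gained it and 1 turned. All 19 losses fall on the 3 called members and the 6 further called genes. Most of the recomputed changes are of genes that were not called and so had no call to lose. Changes of genes under about 5 CPM rest on few reads.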
